A study of Mus musculus with 15 samples.

Results

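Tim-4+CD4+ macrophages of the small intestine were compared with Ly6Chi monocytes of the blood. The comparison used the 4 libraries labelled Tim-4+CD4+ and the 3 labelled Ly6Chi monocytes, 7 of 15 libraries in all, each assigned by its label. The other 8 libraries, 4 of Tim-4-CD4- macrophages and 4 of the Tim-4-CD4+ subset of the same organ, entered the shared fit. They served to show in which other populations a difference was also present. The populations were sorted separately, and whether one gives rise to another was not tested here. All cells came from adult male wild type C57BL/6 mice without treatment, and 3 mice were pooled for each library except monocyte replicate 2, which was pooled from 4. Replicates of a population were separate pools of animals, and the p-values measure the spread between such pools. Macrophage subsets of 1 sort may come from the same mice. Macrophages had been released from the gut wall with chelating and reducing agents and the enzyme liberase and sorted with antibodies to CD64, MHCII, CD11b, Tim-4, and CD4, with Ly6C and antigens of T cells, B cells, neutrophils, and eosinophils as exclusion markers, whereas monocytes came from blood. Tissue, enzymatic release, and population therefore cannot be told apart in any difference below, and in bulk RNA a smaller share of cells of a type cannot be told apart from less RNA per cell.

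Ly6Chi monocytes leave the bone marrow, circulate for a short time, and enter tissues through adhesion molecules and chemokine receptors such as CCR2, where they can become macrophages. Resident macrophages of the gut wall take up dying cells and debris through receptors such as Tim-4, which binds phosphatidylserine on apoptotic cells, and they secrete complement components, chemokines, and factors that act on neighboring epithelium, nerves, and vessels. CD4, best known as the coreceptor of helper T cells, is also made by some macrophages.

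Promoter sequences are given here for the genes on which the comparison rests, so that the bases before the annotated start can be read beside the levels. Whether these regions act on the levels was not tested. *Timd4* encodes Tim-4. *Ccr2* encodes the receptor that draws monocytes out of the marrow and into tissue. *Ly6c2* encodes the surface antigen by which these monocytes were sorted. *Cd177* was the silenced monocyte gene with the highest CPM (reads of a gene scaled by library size) that had an entry among the RefSeq promoters used here, and *Pla2g2d*, a secreted phospholipase, had the highest CPM of the genes absent from monocytes. Each sequence holds the 250 bases before the annotated start on GRCm38.p6, written 5′ to 3′ on the strand of the gene. *Ly6c2* had 2 windows among these promoters, of which the first is given. For *Ccr2* the RefSeq start lies downstream of the GENCODE start used for gene positions below, so most of its window lies inside the gene by those positions. *Timd4* lies at chr11:46810549-46810798, plus strand, *Ccr2* at chr9:124101933-124102182, plus strand, *Ly6c2* at chr15:75111972-75112221, minus strand, *Cd177* at chr7:24760312-24760561, minus strand, and *Pla2g2d* at chr4:138775485-138775734, plus strand. Capitals mark matches on either strand to one of 8 short motifs: GAGGAA (PU.1), TTNNGCAA (C/EBP), TGANTCA (AP-1), GAAANNGAA (IRF), CACGTG (E-box), TGCTGA (MAF), GGGCGG (SP/KLF), and TATAAA (TBP).
Timd4: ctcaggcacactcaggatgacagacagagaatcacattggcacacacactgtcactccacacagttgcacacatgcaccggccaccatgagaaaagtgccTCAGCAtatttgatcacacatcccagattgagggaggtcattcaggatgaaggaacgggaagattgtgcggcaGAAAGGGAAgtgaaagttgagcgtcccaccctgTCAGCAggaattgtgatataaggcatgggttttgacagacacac
Ccr2: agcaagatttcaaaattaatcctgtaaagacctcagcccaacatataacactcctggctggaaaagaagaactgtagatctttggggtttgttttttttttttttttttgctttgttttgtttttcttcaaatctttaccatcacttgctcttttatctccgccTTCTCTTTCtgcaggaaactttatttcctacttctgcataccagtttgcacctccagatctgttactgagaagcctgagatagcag
Ly6c2: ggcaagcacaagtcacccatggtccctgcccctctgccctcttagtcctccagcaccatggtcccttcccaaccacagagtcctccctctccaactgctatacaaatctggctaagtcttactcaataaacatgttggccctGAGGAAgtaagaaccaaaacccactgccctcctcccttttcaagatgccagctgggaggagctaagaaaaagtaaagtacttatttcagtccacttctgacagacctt
Cd177: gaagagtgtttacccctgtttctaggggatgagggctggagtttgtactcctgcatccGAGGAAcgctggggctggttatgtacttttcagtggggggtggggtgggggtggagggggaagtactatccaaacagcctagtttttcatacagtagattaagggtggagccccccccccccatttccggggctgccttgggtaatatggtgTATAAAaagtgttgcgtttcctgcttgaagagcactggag
Pla2g2d: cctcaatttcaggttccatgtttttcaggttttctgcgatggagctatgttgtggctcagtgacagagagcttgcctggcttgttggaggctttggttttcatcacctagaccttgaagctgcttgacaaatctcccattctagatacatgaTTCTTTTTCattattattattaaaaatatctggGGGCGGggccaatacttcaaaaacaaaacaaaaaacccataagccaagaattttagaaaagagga

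The *Timd4* window held 2 matches to the MAF motif, from base -150 to -145 and from -44 to -39 relative to the start, and 1 to the IRF motif from -77 to -69. The *Ccr2* window also held an IRF match (-86 to -78), which lies inside the gene by the GENCODE positions. The *Pla2g2d* window held an IRF match (-98 to -90) and a match to the SP/KLF motif (-65 to -60). *Ly6c2* and *Cd177* each held 1 PU.1 match, from -108 to -103 and from -192 to -187, and *Cd177* also held a TBP match (-40 to -35). Such matches are common: of 27025 mouse promoters of the same length, 23.1% held the PU.1 motif, 15.8% the MAF motif, 32.9% the SP/KLF motif, 13% the TBP motif, and 7.16% the IRF motif. The shares were 9.55% for the C/EBP motif, 6.87% for the AP-1 motif, and 6.05% for the E-box, none of which was matched in these 5 windows. A match is a string of letters and not a bound site. *Cd4* and *Hp* were not among the promoters used here. Fewer than 80% of the silenced and of the absent genes had a window (37 of 49 and 154 of 248), so the motifs were not compared between the sets.

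The sorting markers were read first as a check on the labels, since their proteins defined the populations and their transcripts are no finding. Values are CPM after scaling of library sizes, listed in the order of replicate numbers, and a value after ± is the standard deviation over 3 monocyte or 4 macrophage libraries. *Timd4* (ENSMUSG00000055546.6) was at 0.0708, 0.0584, and 0.0186 CPM in the monocyte libraries and 389.9, 336.5, 359, and 337 CPM in the Tim-4+CD4+ libraries. *Ccr2* (ENSMUSG00000049103.13, chr9:124101950-124113557) was at 2884, 2243, and 2762 CPM in the monocyte libraries and 6.98, 15.8, 5.92, and 4.84 CPM in the Tim-4+CD4+ libraries. Every macrophage library was thus above every monocyte library for *Timd4* and below every monocyte library for *Ccr2*, although Tim-4+CD4+ replicate 2 held more *Ccr2* than the other 3. *Cd4* was at 0.205, 0.156, and 0.26 CPM in the monocyte libraries and 755, 752, 924, and 832 CPM in the Tim-4+CD4+ libraries. *Ly6c2*, which belongs to a family of similar genes whose reads may be lost or shared, was at 1545, 820.0, and 912 CPM in the monocyte libraries and 1.05, 0.628, 0.611, and 0.614 CPM in the Tim-4+CD4+ libraries. The log2 difference of Tim-4+CD4+ macrophages from monocytes was 12.58 ± 1.07 for *Timd4*, 11.99 ± 0.42 for *Cd4*, -8.28 ± 0.39 for *Ccr2*, and -10.53 ± 0.59 for *Ly6c2*, where the value after ± is the standard error. Of the other antigens used to sort macrophages, *Fcgr1* (CD64) did not pass the test between the populations at 279 ± 99.2 CPM in monocytes and 268 ± 31.2 CPM in macrophages, *Itgam* (CD11b) was at 353 ± 25 CPM and 209 ± 24.8 CPM, and *Itgax* (CD11c, not gated in this sort) was at 16.6 ± 1.28 CPM and 1073 ± 84.6 CPM. *S100a8* and *S100a9*, which encode calgranulins and are usually abundant in monocytes, were at 1.22 ± 0.582 CPM and 0.413 ± 0.177 CPM in these monocyte libraries, next to 22073 ± 2498 CPM of *Lyz2* and 209.6 ± 13.8 CPM of *S100a4*. Whether reads of these or other genes were lost before the counts were deposited was not tested, so a level near 0 in monocytes is a statement on the counts.

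Most genes differed between these populations. By the quasi-likelihood test of edgeR, fitted to 15802 genes in 15 libraries, 11196 genes (70.9%) had a Benjamini-Hochberg adjusted p under 0.05, of which 6247 were higher and 4949 lower in Tim-4+CD4+ macrophages. With a difference of at least 2-fold also required, 4766 (30.2%) were higher and 2083 (13.2%) were lower, and in what follows a gene is called higher or lower only if it met both limits. Of all 15802 tested genes, whether or not they passed the test, 5920 had every Tim-4+CD4+ library above every monocyte library. For 4933 every Tim-4+CD4+ library was below every monocyte library. At the far ends, 318 genes were higher and 23 lower by at least 10 on the log2 scale, and 2043 and 248 by at least 5. The median log2 difference over all tested genes was 0.10. The 7 libraries held between 48739371 and 139410518 counted reads. Raw counts of replicates, as log2 with 1 added, correlated across genes at 0.962 to 0.987 over 9 pairs. Because most genes passed, a count of list members is read below against these shares and not against 0.

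Measured as a share of all counts, a few genes moved most. *Apoe*, which carries lipids out of cells, was at 1609, 898, and 1735 CPM in the monocyte libraries and 39859, 28619, 30896, and 29172 CPM in the Tim-4+CD4+ libraries, which was the largest rise in CPM (4.51 ± 0.22 on the log2 scale, adjusted p = 1.32e-11, edgeR). The next 4 were *Cd74*, *H2-Ab1*, *H2-Aa*, and *H2-Eb1*, the invariant chain and chains of MHCII, a sorting marker. These 5 genes together went from 0.249% of CPM in monocytes to 9.13% in Tim-4+CD4+ macrophages. In the other direction, *Lyz2*, which encodes lysozyme, was at 24904, 20175, and 21141 CPM in the monocyte libraries and 4966, 4308, 4008, and 3543 CPM in the Tim-4+CD4+ libraries and remained one of the more abundant transcripts even so (-2.39 ± 0.11, adjusted p = 7.94e-12, edgeR). *Fn1* (fibronectin) went from 5519 ± 716 CPM to 15.4 ± 6.29 CPM, *Flna* (filamin A, which crosslinks actin) from 2889 ± 152 CPM to 166 ± 23.7 CPM, and *Samhd1*, a nuclease that degrades deoxynucleotides, from 2924 ± 609 CPM to 423 ± 23.6 CPM. With *Lyz2* and *Ccr2*, these made up 3.60% of CPM in monocytes and 0.482% in macrophages.

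Silenced monocyte genes were defined as genes called lower with a mean of at least 10 CPM in monocytes and under 0.5 CPM in every Tim-4+CD4+ library. There were 49 of them, 0.626% of the 7829 genes at 10 CPM or more in monocytes, and 44 encode proteins. The definition fixes their direction, so their levels are a description. In only 2 of the 49 did every macrophage library hold 3 counts or fewer, and none was at 0 in all 4, so most were present as traces. The monocyte gene with the highest CPM in the set was *Hp* (haptoglobin, which binds free hemoglobin, ENSMUSG00000031722.10, chr8:109575128-109579172), at 1177, 913, and 838.5 CPM in the monocyte libraries and 0.263, 0.284, 0.305, and 0.265 CPM in the Tim-4+CD4+ libraries. Its log2 difference was -11.77 ± 0.61, and the ratio of its pooled counts was 3683 with a 95% interval from 3013 to 4553. Intervals of this kind are exact binomial on counts pooled over the libraries of each population. They cover counting error only and leave out the spread between pools of animals. The reads carried no molecular identifiers, so the counting error itself may be larger.

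**Figure D1:**
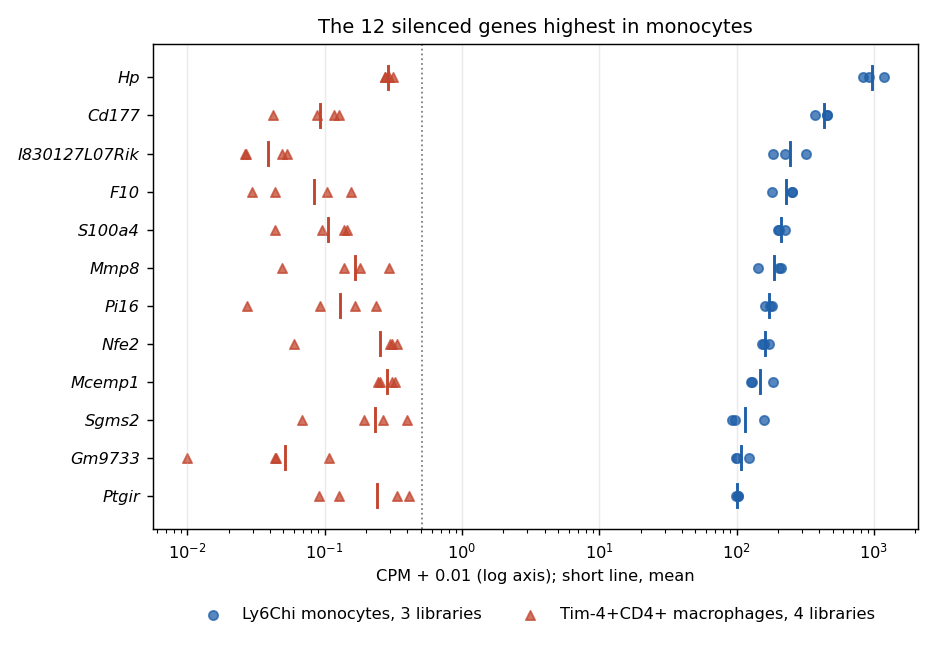
CPM (log axis, with 0.01 added) of the 12 silenced genes with the highest mean in monocytes, in each of 3 monocyte (circles) and 4 Tim-4+CD4+ libraries (triangles), with the mean as a short line and the limit of 0.5 CPM dotted. The groups do not overlap for any gene, from *Hp* (976 CPM in monocytes) to *Ptgir* (101 CPM), and the macrophage libraries scatter more, where few reads were counted.

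Several of the silenced genes with the highest CPM act at the monocyte surface or in its secretions. *Cd177*, which encodes a glycosyl-phosphatidylinositol-anchored protein known from neutrophils that binds PECAM1, was at 459, 458, and 374 CPM in the monocyte libraries and 0.107, 0.0775, 0.0322, and 0.116 CPM in the Tim-4+CD4+ libraries. *F10* (coagulation factor X) was at 253, 251, and 179.6 CPM in the monocyte libraries and 0.0195, 0.0947, 0.145, and 0.0332 CPM in the Tim-4+CD4+ libraries. *S100a4*, a calcium-binding protein associated with cell motility, was at 199.6, 225, and 204 CPM in the monocyte libraries and 0.136, 0.0861, 0.129, and 0.0332 CPM in the Tim-4+CD4+ libraries. In each of these 3 genes the monocyte libraries lay close together, and the macrophage libraries held only traces. *Mmp8* (neutrophil collagenase) went from 186 ± 36.5 CPM to 0.155 ± 0.101 CPM, and *Pi16* (peptidase inhibitor 16) from 172 ± 9.73 CPM to 0.12 ± 0.0899 CPM. *Mcemp1*, a membrane protein of mast cells and myeloid cells, went from 147 ± 32.4 CPM to 0.273 ± 0.0414 CPM. *Ptgir*, the prostacyclin receptor, was at 99.6, 103, and 101.5 CPM in the monocyte libraries and 0.399, 0.327, 0.0804, and 0.116 CPM in the Tim-4+CD4+ libraries, with very little spread among monocytes and a range in macrophages that reached close to the limit. *Nfe2*, a transcription factor known from the erythroid and megakaryocyte lineages, went from 161.5 ± 11 CPM to 0.242 ± 0.129 CPM, and *Sgms2* (sphingomyelin synthase) from 115 ± 36.2 CPM to 0.221 ± 0.138 CPM. The pseudogene *I830127L07Rik* (243 ± 71.2 CPM and 0.0287 ± 0.0143 CPM) and *Gm9733* (108 ± 13.7 CPM and 0.0412 ± 0.0406 CPM) completed the 12. Their log2 differences ran from -12.82 ± 0.42 for *I830127L07Rik* to -8.62 ± 0.45 for *Ptgir*.

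The remaining 37 silenced genes lay between 10.5 and 94.1 CPM in monocytes. Besides *F10*, they included *F5* (coagulation factor V, 83.9 ± 14.1 CPM and 0.204 ± 0.124 CPM). Genes that place or guide cells in vessels included *S1pr5*, a sphingosine 1-phosphate receptor that takes part in the exit of monocytes and NK cells from the marrow, at 47.3, 43.3, and 57.7 CPM in the monocyte libraries and 0.0292, 0.0172, 0, and 0 CPM in the Tim-4+CD4+ libraries. *Fut7*, which builds the sugar recognized by selectins, went from 15.8 ± 1.42 CPM to 0.0175 ± 0.0289 CPM. *Padi4*, which converts arginine in histones to citrulline, went from 83.9 ± 7.96 CPM to 0.0400 ± 0.0418 CPM. *Adora2b*, an adenosine receptor, went from 22.4 ± 1.05 CPM to 0.0151 ± 0.0301 CPM, *Rgs18*, a brake on G protein signaling, from 25.4 ± 2.08 CPM to 0.0841 ± 0.0358 CPM, and the tyrosine kinase gene *Bmx* from 27.4 ± 6.59 CPM to 0.141 ± 0.162 CPM. *Prtn3*, which encodes a granule protease, was the lowest of the 49 in monocytes at 10.5 ± 3.08 CPM. No 2 silenced genes lay within 100 kb of each other. Those just inside the limit of 0.5 CPM were *Myo1h*, *Abca6*, and *Celsr3*, whose highest macrophage libraries were at 0.457, 0.473, and 0.473 CPM. Just outside it were *Tnfsf14*, *Gm14548*, and *Chil3* at 0.514, 0.531, and 0.547 CPM. *Chil3*, which encodes a chitinase-like lectin, had 1647 ± 898 CPM in monocytes, and its difference of -11.96 ± 0.79 was as steep as those of the first silenced genes.

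Genes absent from monocytes were defined as the mirror image, with a mean of at least 10 CPM in Tim-4+CD4+ macrophages and under 0.5 CPM in every monocyte library. There were 248, 3.02% of the 8205 genes at 10 CPM or more in macrophages, and 197 encode proteins. Another 35 were immunoglobulin gene segments. Of the 248 genes, 86 had 3 counts or fewer in every monocyte library and 18 had none at all. Of the 248, 204 remained when immunoglobulin segments and listed markers of other cell types were left out, a count added after the data were seen. Transcripts of other cells that are on no list were not left out, among them *Muc6*, *Tff2*, and *Gkn3*, described below.

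**Figure D2:**
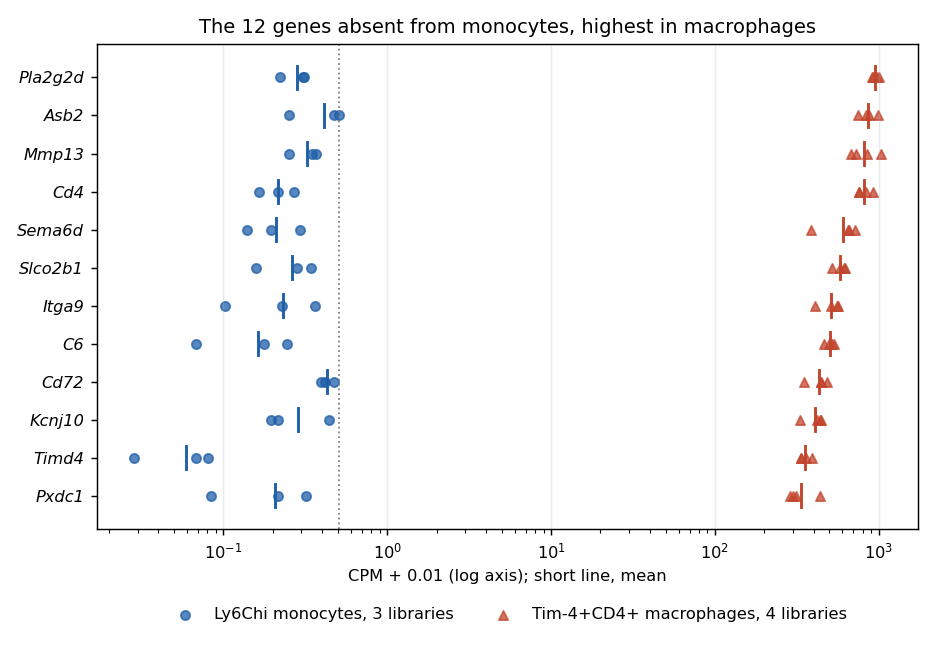
CPM (log axis, with 0.01 added) of the 12 genes absent from monocytes with the highest mean in Tim-4+CD4+ macrophages, in each of 3 monocyte (circles) and 4 Tim-4+CD4+ libraries (triangles), with the mean as a short line and the limit of 0.5 CPM dotted. The groups do not overlap for any gene, from *Pla2g2d* (949 CPM in macrophages) to *Pxdc1* (334 CPM). The macrophage libraries scatter little beside the distance between the groups, though *Sema6d* runs from 387 to 716 CPM.

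The absent genes with the highest CPM in macrophages included genes of secreted and of surface proteins. *Pla2g2d* (ENSMUSG00000041202.12, chr4:138775735-138782046), a secreted phospholipase that releases fatty acids from phospholipids, was at 0.212, 0.302, and 0.297 CPM in the monocyte libraries and 969.9, 924, 997.5, and 905 CPM in the Tim-4+CD4+ libraries (11.81 ± 0.24 on the log2 scale). *Mmp13*, a collagenase, was at 0.34, 0.36, and 0.241 CPM in the monocyte libraries and 672, 1033, 721, and 843 CPM in the Tim-4+CD4+ libraries (11.29 ± 0.26 on the log2 scale). *C6*, a component of the membrane attack complex of complement, was at 0.234, 0.0584, and 0.167 CPM in the monocyte libraries and 515, 529, 499, and 465 CPM in the Tim-4+CD4+ libraries. The macrophage libraries lay close together for *Pla2g2d* and *C6* and ranged more widely for *Mmp13*. In all 3 genes each monocyte library held less than 0.5 CPM, which the definition requires. *Asb2*, which encodes part of a ubiquitin ligase, went from 0.402 ± 0.139 CPM to 861 ± 97.4 CPM. *Sema6d*, a membrane semaphorin, was at 602 ± 147 CPM, the organic anion transporter gene *Slco2b1* at 581 ± 47.2 CPM, and *Itga9*, an integrin chain that binds tenascin and osteopontin, at 511 ± 72.3 CPM in macrophages. *Cd72*, an inhibitory lectin known from B cells, was at 431 ± 58.3 CPM, the potassium channel gene *Kcnj10* at 408 ± 54 CPM, and *Pxdc1* at 334 ± 71.1 CPM. All of these were under 0.5 CPM in each monocyte library. Per kilobase of exon, *Pla2g2d* reached 423 RPKM (CPM per kilobase), *Cd4* 202 RPKM, and *Timd4* 164 RPKM in macrophages, while *Hp* reached 608 RPKM and *Ccr2* 389 RPKM in monocytes.

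Below the first 12, absent genes included secreted signals, enzymes of lipid mediators, and iron handling. *Wnt4*, a secreted ligand of the Wnt family, was at 0.0567, 0.00973, and 0.0929 CPM in the monocyte libraries and 375, 311, 239, and 319 CPM in the Tim-4+CD4+ libraries. *Il10*, the cytokine that restrains macrophage activation, was at 0.0638, 0.0778, and 0.0186 CPM in the monocyte libraries and 162, 105, 117, and 114 CPM in the Tim-4+CD4+ libraries. *Mmp2* (gelatinase, 297.5 ± 40.3 CPM), *Olfml3* (286 ± 20.4 CPM), and *Gas6*, the bridge between phosphatidylserine and the receptors *Mertk* and *Axl* (222 ± 14.8 CPM), were further secreted products. *Hpgds*, which makes prostaglandin D2, was at 296 ± 14.3 CPM, and *Ltc4s*, which makes leukotriene C4, at 93.7 ± 29.6 CPM. *Slc40a1* (ferroportin, the exporter of iron from cells) was at 218 ± 10.6 CPM, and *Cp* (ceruloplasmin, which oxidizes iron) at 206 ± 20.7 CPM. *Cd63*, which encodes a tetraspanin of late endosomes that most cell types express, was at 0.34, 0.127, and 0.427 CPM in the monocyte libraries. It was at 436, 261.5, 301, and 291 CPM in the Tim-4+CD4+ libraries. Few of its reads were thus counted in monocytes, and whether reads were lost before the counts were deposited was not tested. *Dkk3*, which encodes a secreted protein of the Dickkopf family, was at 0.0213, 0, and 0.0372 CPM in the monocyte libraries and 119, 87.1, 99.1, and 105 CPM in the Tim-4+CD4+ libraries, against 6.14 CPM in Tim-4-CD4- macrophages.

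Among the 18 genes with no count in any monocyte library, a difference can be given only as a bound against a floor of 3 counts per library. *Spock1*, a secreted proteoglycan, at 23.5, 29.5, 35.8, and 34.9 CPM in the macrophage libraries, was at least 874-fold higher. *Gm15880* was at least 784-fold, *Bgn* (biglycan) 734-fold, *Dlc1*, which encodes a GTPase-activating protein, 623-fold, and *Stab2*, a scavenger receptor, 303-fold higher by the same floor. The gastric and duodenal gland transcripts *Gkn3*, *Muc6*, and *Tff2* also met the definition, but their macrophage libraries were uneven. *Gkn3* was at 27.6, 19.4, 3.73, and 29.3 CPM, *Muc6* at 26.6, 70.6, 8.13, and 73 CPM, and *Tff2* at 72.9, 40.6, 7.72, and 71.1 CPM in the Tim-4+CD4+ libraries, low in replicate 3 in each case. Of the 248 genes, 54 lay within 100 kb of another in 19 runs. The run with the most genes held 8 immunoglobulin segments on chromosome 6, and one of 5 lay on chromosome 12. Another run of 5, on chr6:124841089-125003096, held *P3h3*, *Gpr162*, *Cd4*, *Lag3*, and *Pianp*, and one on chr11:82045712-82116799 held the chemokine genes *Ccl7*, *Ccl12*, and *Ccl8*. The genes just inside the limit were *Agmo*, *Kcng2*, and *Asb2*, whose highest monocyte libraries were at 0.483, 0.483, and 0.496 CPM, and those just outside it were *Pdcd1lg2*, *Prpf40b*, and *Camk2a* at 0.502, 0.502, and 0.503 CPM.

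The CPM limits of both sets were not applied to the 8 libraries of the other macrophages, which entered only through the shared fit. A fit of the 7 libraries alone gave 50 silenced genes, 49 of them shared, and 259 absent genes, 247 of them shared. The silenced genes had a median of 27.9 CPM in monocytes, 0.743 CPM in Tim-4-CD4- macrophages, 0.259 CPM in Tim-4-CD4+ macrophages, and 0.153 CPM in Tim-4+CD4+ macrophages. None of the 49 reached 10 CPM on average in either other subset, and 14 were under 0.5 CPM in every Tim-4-CD4- library, as were 32 in every Tim-4-CD4+ library. Of the 49, 43 had a lower mean in Tim-4-CD4+ than in Tim-4-CD4- macrophages. The absent genes had medians of 0.0392, 15, 20.3, and 26 CPM in the same order. In Tim-4-CD4- macrophages 164 of the 248 reached 10 CPM on average, and 192 did so in Tim-4-CD4+ macrophages. Of the 248, 195 had a higher mean in Tim-4-CD4+ than in Tim-4-CD4- macrophages. For both sets this order was not tested and not set against the share of all genes. By the medians, most of the span from monocytes was thus present in macrophages that carry neither marker. A single absent gene, the long noncoding RNA *2900052N01Rik*, was under 0.5 CPM in every library of both other subsets, with 21.2, 15.1, 27, and 25.3 CPM in the Tim-4+CD4+ libraries.

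**Figure D3:**
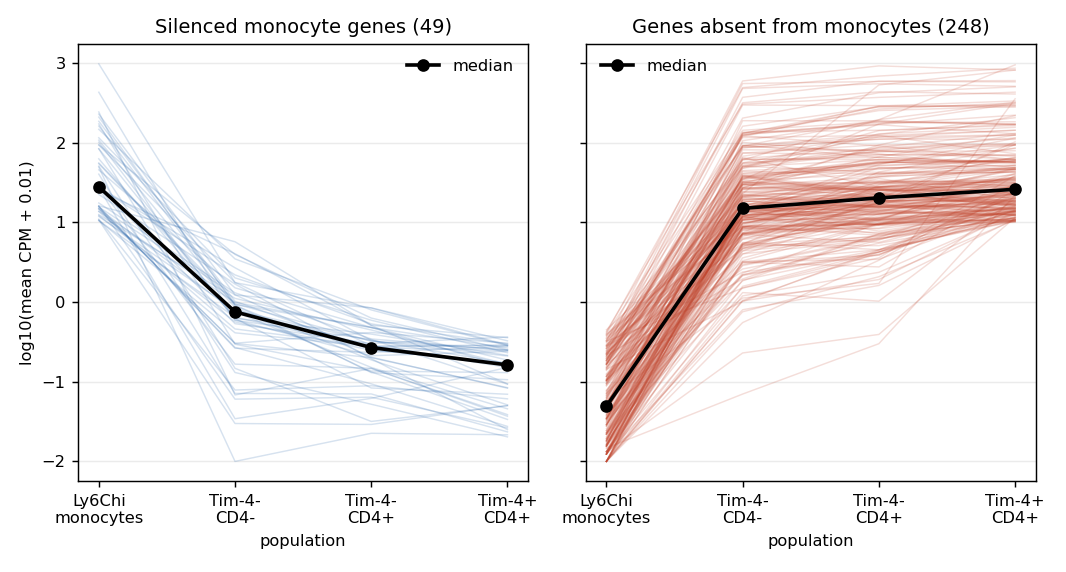
Mean expression (log10 of CPM with 0.01 added) of each of 49 silenced and 248 absent genes in the 4 populations, 1 thin line for each gene and the median in black. The medians change most between monocytes and Tim-4-CD4- macrophages. The levels in monocytes and in Tim-4+CD4+ macrophages were used to choose the genes.

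The doubly positive and the doubly negative macrophages were tested against each other directly, because both had been set against the same monocytes. Across all genes, 4.68% were called higher and 3.78% lower in Tim-4+CD4+ macrophages in that contrast. *Ccr2* was at 660.0 CPM in Tim-4-CD4-, 84.1 CPM in Tim-4-CD4+, and 8.39 CPM in Tim-4+CD4+ macrophages (-6.28 ± 0.35 between the first and the last, adjusted p = 2.30e-09, edgeR). Unlike *Ly6c2*, it was thus not low in Tim-4-CD4- macrophages. *Ly6c2* was at 1.72 CPM in Tim-4-CD4- macrophages, and its difference between these subsets did not pass the test (-1.22 ± 0.51, adjusted p = 0.098, edgeR). It passed with the replicate number as a block (-1.32, adjusted p = 0.0311, edgeR) and in a fit of the 8 libraries of both subsets (-1.22, adjusted p = 0.0105, edgeR). Of the 12 silenced genes named first, *Hp*, *Cd177*, *F10*, *S100a4*, *Mmp8*, *Nfe2*, *Mcemp1*, *Sgms2*, and *Gm9733* were called lower again in this contrast, *Nfe2* not when the 8 libraries were fitted with a replicate block (adjusted p = 0.0636, edgeR). *Pla2g2d* stood at 60.7 CPM in Tim-4-CD4- macrophages and 194 CPM in Tim-4-CD4+ macrophages, and was called higher in Tim-4+CD4+ macrophages (3.97 ± 0.14, adjusted p = 6.03e-11, edgeR). Besides *Timd4* and *Cd4*, which were sorted for, *C6* and *Pxdc1* were the other genes of the absent 12 called in this contrast.

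Genes known for blood monocytes were lower almost without exception. Of 31 on a list of such genes, 29 were called lower and 1 higher, where 13.2% of all genes were lower and 30.2% higher. The median log2 difference of the list was -7.50, beside 0.10 for all genes. The lists here and below were drawn up with earlier results of these data known, so they describe and do not test. *Plac8* went from 1717 ± 434.5 CPM to 7.6 ± 1.59 CPM and *F13a1*, the coagulation factor XIII subunit, from 2342 ± 297 CPM to 45.6 ± 12.7 CPM. *Il17ra*, the receptor chain for interleukin 17, was at 897, 1006, and 943.5 CPM in the monocyte libraries and 5.38, 5.83, 5.53, and 4.2 CPM in the Tim-4+CD4+ libraries, a log2 difference of -7.50 ± 0.17 with narrow spread in both groups. *Cybb*, the catalytic subunit of the phagocyte oxidase, differed less (-1.14 ± 0.13, and -0.99 without Tim-4+CD4+ replicate 1). The member called higher was *Thbs1* (thrombospondin 1), at 49.2, 47.1, and 46.3 CPM in the monocyte libraries and 1203, 2362, 2076, and 2151 CPM in the Tim-4+CD4+ libraries, all macrophage libraries far above all monocyte libraries. *Treml4* did not reach 2-fold. In the contrast with Tim-4-CD4- macrophages, 14 of the 31 were again lower, among them *Plac8*, *Ifitm6*, *Gda*, *Clec4e*, *Ms4a4c*, *Mgst1*, and *Il17ra*.

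Granule and progenitor genes, which mark the marrow stages before the blood monocyte, were mostly low in both populations. Of 11 tested, 7 were lower and 2 higher (median log2 difference -2.91). *Flt3*, a growth factor receptor of progenitors and dendritic cells, went from 29.6 ± 6.71 CPM to 0.572 ± 0.172 CPM. *Elane* (0.383 ± 0.141 CPM), *Ctsg* (1.23 ± 0.417 CPM), and *Cebpe* (1.88 ± 0.681 CPM) were called lower from levels of at most a few CPM in monocytes. *Kit*, the receptor for stem cell factor, was called higher at 1.45 ± 0.445 CPM, below its 7.74 CPM in Tim-4-CD4- macrophages. *Mpo*, with 140 counts over the 3 monocyte libraries, did not pass the filter, and *Ms4a3*, *Camp*, and *Ngp* were not among the genes counted.

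Adhesion molecules changed in both directions, 10 of 24 higher and 11 lower (median -0.59). Among those lower, *Selplg*, the ligand of selectins, went from 621 ± 46.2 CPM to 108 ± 11 CPM, *Itgal* (the LFA-1 chain) from 1206 ± 121 CPM to 199 ± 13.9 CPM, and *Spn* (CD43) from 295 ± 68.9 CPM to 2.77 ± 0.479 CPM. *Itga4*, the chain of the VLA-4 and the gut-homing integrin, went from 1471 ± 159.5 CPM to 214 ± 76.8 CPM, and *Itgb7*, its partner in the gut-homing pair, was at 876, 590.5, and 587.5 CPM in the monocyte libraries and 16.6, 13.8, 16.3, and 11 CPM in the Tim-4+CD4+ libraries (-5.57 ± 0.18, adjusted p = 5.81e-14, edgeR). *Itgb7* was also lower than in Tim-4-CD4- macrophages (103 CPM). The transcripts higher in macrophages included *Itga9*, *Itgax*, and *Itgb5*, the tetraspanin genes *Cd9* (5.7 ± 0.447 CPM to 229.8 ± 16.6 CPM) and *Cd81* (2.49 ± 0.29 CPM to 1297 ± 104.5 CPM), and *Jaml* (36.9 ± 12.7 CPM to 1005 ± 40.8 CPM). *Pecam1*, which encodes a homophilic junction protein, went from 15 ± 4.58 CPM to 305 ± 24.4 CPM and was the single member also higher than in Tim-4-CD4- macrophages. *Itgb8* was called higher although its 4 macrophage libraries held 0, 0.0258, 0.113, and 0 CPM, so that call rests on a few reads in 2 libraries and was lost without any one monocyte library or without Tim-4+CD4+ replicate 3 (adjusted p = 0.054 to 0.129, edgeR).

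**Figure D4:**
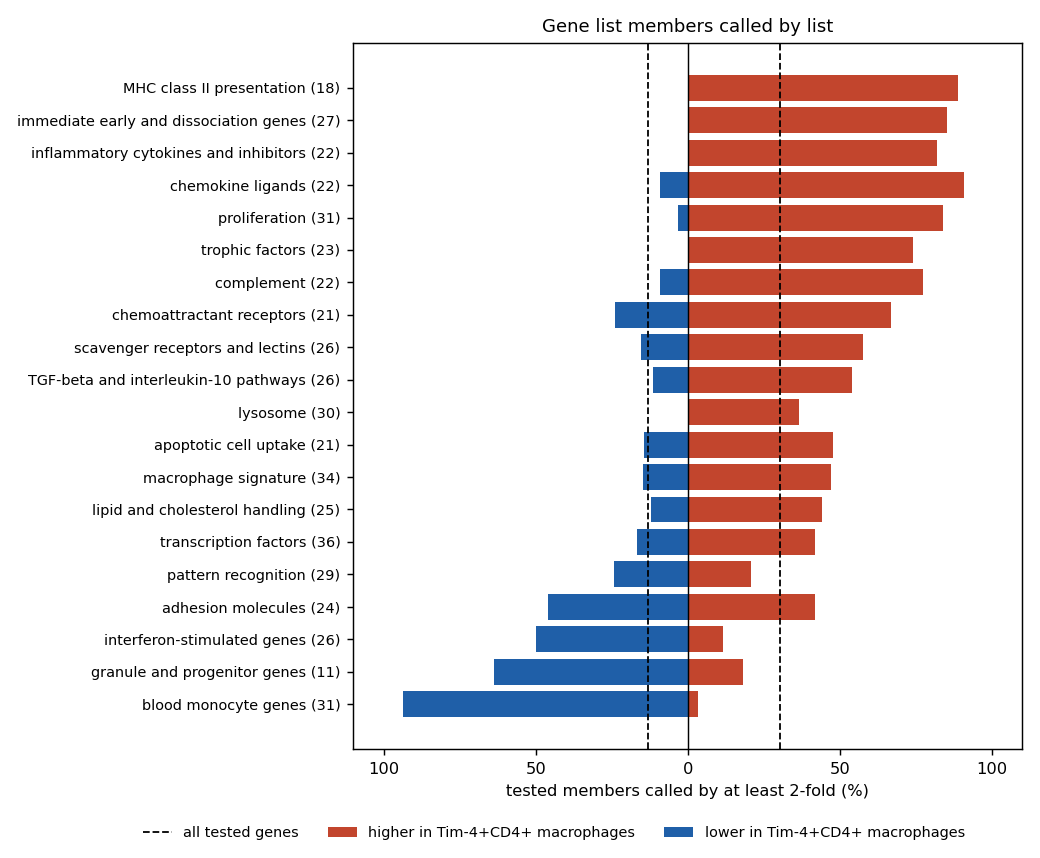
Share of the tested members of each gene list (number in brackets) called higher (red, to the right) or lower (blue, to the left) by at least 2-fold in Tim-4+CD4+ macrophages, in percent, with the shares of all tested genes (30.2% higher, 13.2% lower) as dashed lines. Chemokine, MHC class II, immediate early, and proliferation lists lie farthest to the right, and blood monocyte, granule, and interferon-stimulated genes farthest to the left.

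Receptors that sense attractants changed in both directions as well. Of 21 tested, 14 were higher and 5 lower (median log2 difference 2.69). The lower ones were *Ccr2*, *S1pr5*, *S1pr4* (13 ± 3.33 CPM to 0.474 ± 0.292 CPM), *Ltb4r1* (the leukotriene B4 receptor, 67.6 ± 8.27 CPM to 0.861 ± 0.229 CPM), and *Cxcr2*, which was under 1 CPM throughout and missed the test without monocyte replicate 2 (adjusted p = 0.0525, edgeR). *Ccrl2*, a receptor that binds chemerin without signaling, was at 6.82, 4.99, and 5.85 CPM in the monocyte libraries and 632, 501, 535, and 439 CPM in the Tim-4+CD4+ libraries. *C3ar1*, the receptor for complement fragment C3a, was at 7.93, 3.93, and 6.32 CPM in the monocyte libraries and 628, 882, 651, and 703 CPM in the Tim-4+CD4+ libraries (6.88 ± 0.25, adjusted p = 2.20e-13, edgeR), and *C5ar1*, for C5a, went from 31.5 ± 3.63 CPM to 507 ± 43 CPM. All macrophage libraries exceeded all monocyte libraries in each of these 3. *Ccr1* (73.1 ± 27.9 CPM to 465 ± 67.4 CPM) and *Cxcr4* (102 ± 6.4 CPM to 610.5 ± 164 CPM) were also higher. *Cx3cr1*, the fractalkine receptor that marks gut macrophages, was at 647 ± 95.9 CPM and 991 ± 125 CPM and was not called. *Fpr1*, a receptor for bacterial formyl peptides, was the member also higher than in Tim-4-CD4- macrophages (13.1 and 41.1 CPM).

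Chemokine ligands were higher as a group, 20 of 22, with a median log2 difference of 8.66. *Cxcl2*, which attracts neutrophils, was at 0.545, 0.438, and 0.687 CPM in the monocyte libraries and 803, 669, 804, and 737 CPM in the Tim-4+CD4+ libraries. *Cxcl16*, which attracts T cells and binds oxidized lipoprotein, was at 4.63, 3.98, and 3.59 CPM in the monocyte libraries and 1396, 1126, 1053, and 1102 CPM in the Tim-4+CD4+ libraries, and *Ccl3*, a ligand of CCR1, was at 1.47, 2.08, and 1.95 CPM in the monocyte libraries and 735, 849.8, 785, and 573 CPM in the Tim-4+CD4+ libraries. In all 3 the monocyte libraries held a few CPM at most. Ligands of CCR2 were among them, with *Ccl7* at 172 ± 19.5 CPM and *Ccl12* at 48.2 ± 14.5 CPM and both absent from monocytes by the definition above, and *Ccl2* at 3.28 ± 1.9 CPM in monocytes and 127 ± 19.6 CPM in macrophages. The members called lower were *Ccl6* (734 ± 118 CPM to 152 ± 23.1 CPM) and *Ccl9* (524 ± 35.9 CPM to 35.7 ± 11.1 CPM). Against Tim-4-CD4- macrophages, *Ccl24*, which attracts eosinophils, was higher (20.2 to 119 CPM), as was *Cxcl13*, the attractant of B cells, at 1.85, 1.53, 2.25, and 3.05 CPM and 0 in the monocyte libraries. *Ccl6*, *Ccl9*, *Ccl12*, *Ccl17*, and *Ccl22* were lower in that contrast, *Ccl12* not when the 8 libraries of both subsets were fitted with a replicate block (-1.03, adjusted p = 0.0652, edgeR).

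Receptors and bridging molecules for dying cells were raised in part. Of 21 tested, 10 were higher and 3 lower (median log2 difference 0.88). *Mertk*, a receptor kinase for *Gas6* and protein S, was at 1.27, 0.574, and 1.21 CPM in the monocyte libraries and 167, 201, 216, and 212 CPM in the Tim-4+CD4+ libraries (7.62 ± 0.24, adjusted p = 5.38e-14, edgeR). *Stab1*, a receptor that binds phosphatidylserine and other ligands, was at 4.58, 3.47, and 3.9 CPM in the monocyte libraries and 2608, 2387, 2655, and 2503 CPM in the Tim-4+CD4+ libraries (9.31 ± 0.16, adjusted p = 9.65e-17, edgeR). *Axl*, the second receptor for *Gas6*, was present in monocytes and higher in macrophages (112 ± 29.4 CPM and 860.4 ± 55.5 CPM). Every macrophage library was above every monocyte library for these 3 genes. The members lower were *Lrp1*, a large endocytic receptor (1597 ± 73.8 CPM to 321.5 ± 87.6 CPM), *Itgb3*, and *Scarf1*, the last short of 2-fold without monocyte replicate 1 (-0.98). *Timd4*, *Stab2*, and *Mfge8*, a secreted bridge to integrins (18.6 ± 0.567 CPM in monocytes and 34.1 ± 7.54 CPM in Tim-4+CD4+ macrophages, not called at 2-fold), were higher than in Tim-4-CD4- macrophages. The engulfment genes *Elmo1* (125 ± 5.6 CPM and 103 ± 17.6 CPM) and *Dock1* (74.1 ± 3.08 CPM and 38.4 ± 8.89 CPM) were not called, but without Tim-4+CD4+ replicate 3 *Dock1* was called lower (-1.04) and *Mfge8* higher (1.04). *Adgrb1* and *Megf10* had too few reads to test.

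Complement genes were higher in 17 of 22 members and lower in 2 (median log2 difference 5.09). The 3 chains of C1q, which opens the classical pathway, were close to absent from monocytes: *C1qa* was at 3.33, 1.53, and 2.06 CPM in the monocyte libraries and 4715, 3604, 3945, and 4010 CPM in the Tim-4+CD4+ libraries (10.76 ± 0.29, adjusted p = 6.66e-15, edgeR). *C1qb* went from 4.43 ± 1.72 CPM to 3160 ± 690.4 CPM and *C1qc* from 2.49 ± 0.804 CPM to 2906 ± 489 CPM. The same 3 chains were at 3462, 2987, and 2538 CPM in Tim-4-CD4- macrophages, with no call between these subsets. *C3*, on which all pathways converge, went the other way and was at 1825, 1667, and 1370 CPM in the monocyte libraries and 38, 50.7, 56.2, and 41.5 CPM in the Tim-4+CD4+ libraries (-5.12 ± 0.16, adjusted p = 5.83e-14, edgeR). *C2*, the protease that pairs with C4 in the classical pathway, was at 0.383, 0.146, and 0.409 CPM in the monocyte libraries and 56.5, 35.1, 33.1, and 30.6 CPM in the Tim-4+CD4+ libraries, against 1.49 CPM in Tim-4-CD4- and 3.58 CPM in Tim-4-CD4+ macrophages. *C4b* (47.6 to 165 CPM), *Fcna*, which encodes a ficolin (2.3 to 22.6 CPM), and *C6* were also higher than in Tim-4-CD4- macrophages. *C8a*, *Cfd*, *Cfi*, and *Vsig4* were not tested, nor was the gene of C5.

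Scavenger receptors and lectins differed from monocytes and in part from Tim-4-CD4- macrophages. Of 26 tested, 15 were higher and 4 lower than in monocytes, and 9 were higher and 2 lower than in Tim-4-CD4- macrophages. The median log2 difference from monocytes was 1.11. *Cd163*, the receptor that clears hemoglobin bound to haptoglobin, was at 1.95, 2.12, and 2.54 CPM in the monocyte libraries and 397, 505, 793, and 513 CPM in the Tim-4+CD4+ libraries, and had 137 CPM in Tim-4-CD4- macrophages. Its plasma ligand gene *Hp* was, as above, one of the silenced monocyte genes. *Cd209f*, a gene of the DC-SIGN family, was at 12.6, 8.19, 14.3, and 10.9 CPM in the Tim-4+CD4+ libraries, 0.22 CPM in Tim-4-CD4- macrophages, and 0, 0.00973, and 0 CPM in the monocyte libraries. *Cd209b* (65.5 ± 13.4 CPM), *Cd209g* (3.9 ± 1.12 CPM), *Lyve1*, the hyaluronan receptor (23.1 ± 9.46 CPM), and *Folr2*, a folate receptor (18.8 ± 4.82 CPM), followed the same order. Cd209 genes resemble each other, so reads may be shared or lost among them. *Mrc1* (the mannose receptor) was at 20.8, 15.5, and 29.3 CPM in the monocyte libraries and 766, 1143, 1327, and 1096 CPM in the Tim-4+CD4+ libraries and did not differ by the test from Tim-4-CD4- macrophages (-0.05 ± 0.17, adjusted p = 0.88, edgeR). *Clec12a* (264 ± 17.6 CPM to 9.65 ± 2.9 CPM) and *Cd209a* (24.1 ± 10.7 CPM to 7.73 ± 1.7 CPM) were lower than in monocytes and in Tim-4-CD4- macrophages, and *Cd68* (565 ± 89 CPM and 528 ± 45.1 CPM) was not called.

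Lipid genes changed in both directions, and no lysosomal gene was called lower. Among 25 genes for lipid and cholesterol handling, 11 were higher and 3 lower (median log2 difference 0.58). Of all tested genes 30.2% were higher and 13.2% lower, and the lower share of this list was near the latter. *Abca1*, which exports cholesterol, was at 8.37, 11.3, and 13.9 CPM in the monocyte libraries and 89.9, 166, 330.0, and 173 CPM in the Tim-4+CD4+ libraries, all above the monocyte libraries but with a wide range. *Gpnmb*, a glycoprotein induced in lipid-laden phagocytes, was at 1.51, 2.56, and 1.19 CPM in the monocyte libraries and 188, 184.5, 201.5, and 213.5 CPM in the Tim-4+CD4+ libraries, with 17.9 CPM in Tim-4-CD4- macrophages. *Ptgs1* and *Ptgs2*, the cyclooxygenase genes, which were on the list of trophic factors, went from 8.89 ± 0.779 CPM to 1080 ± 59.1 CPM and from 0.445 ± 0.175 CPM to 825 ± 198 CPM. *Lpl* (158 ± 41 CPM to 24.4 ± 3.69 CPM) and *Trem2*, a lipid-sensing receptor (41.9 ± 5.98 CPM to 7.73 ± 2.52 CPM), were lower. Of 30 lysosomal genes 11 were higher and none lower, with a median log2 difference of 0.55. Their higher share was near the 30.2% of all tested genes. *Lgmn*, a cysteine protease, was at 206, 168, and 190.5 CPM in the monocyte libraries and 3468, 3101, 2924, and 2848 CPM in the Tim-4+CD4+ libraries, and *Ctsl* (cathepsin L) went from 38.1 ± 5.18 CPM to 459 ± 29 CPM. Core components such as *Lamp1* (1386 ± 69.4 CPM and 1575 ± 98.4 CPM) and *Psap* (13200 and 15920 CPM) were not called. *Cd63* and *Ctsf* were the 2 lysosomal members also higher than in Tim-4-CD4- macrophages.

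Genes of antigen presentation on MHC class II were higher in 16 of 18 members, with a median log2 difference of 3.30. MHCII protein was one of the sorting markers, so this list is not independent of the gate. *H2-Ab1* was at 216, 70.5, and 160.1 CPM in the monocyte libraries and 15533, 11911, 10709, and 10521 CPM in the Tim-4+CD4+ libraries, and *Ciita*, which drives class II transcription, at 73.2, 23.8, and 41.5 CPM in the monocyte libraries and 311.5, 471, 518, and 472 CPM in the Tim-4+CD4+ libraries. No macrophage library overlapped with a monocyte library for either gene. Monocyte replicate 2 was the lowest of its group in both. The costimulatory and inhibitory ligand genes *Cd86* (26.4 ± 0.797 CPM to 122 ± 2.96 CPM), *Cd40* (34.1 ± 7.5 CPM to 78.7 ± 13.6 CPM), and *Cd274* (PD-L1, 14.9 ± 7.21 CPM to 647 ± 74.2 CPM) were higher as well. *Ctss* and *Ifi30*, which process antigen in the endosome, were not called. No member was higher than in Tim-4-CD4- macrophages, and *H2-Eb2* and *H2-Ob* were lower.

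Cytokines and their inhibitors were higher in 18 of 22 tested members and lower in none, with a median log2 difference of 4.25. *Il1b* was at 47, 19.9, and 42 CPM in the monocyte libraries and 3592, 2704, 2648, and 2696 CPM in the Tim-4+CD4+ libraries and *Tnf* at 7.4, 7.07, and 5.91 CPM in the monocyte libraries and 124, 105, 118, and 93.2 CPM in the Tim-4+CD4+ libraries, above every monocyte library. The inhibitor genes were higher too: *Il1rn*, the receptor antagonist, went from 19.5 ± 6.31 CPM to 104 ± 13.7 CPM, *Il1r2*, the decoy receptor, from 2.75 ± 1.22 CPM to 144 ± 22.2 CPM, and *Tnfaip3*, a brake on NF-κB, from 37.5 ± 1.54 CPM to 1118 ± 139.7 CPM. Compared with Tim-4-CD4- macrophages, *Il1a*, *Il1rn*, *Il6*, and *Il23a* were lower and *Il18bp*, which neutralizes interleukin 18, was higher (46 to 102 CPM). Among 26 genes of the TGF-β and interleukin 10 pathways, 14 were higher and 3 lower (median 1.13). *Tgfbr1* (134.5 ± 9.48 CPM to 408 ± 60.8 CPM) and *Tgfbr2* (169 ± 21 CPM to 424 ± 68.3 CPM) encode the receptor, *Smad6* (1.99 ± 0.387 CPM to 10.6 ± 1.23 CPM) and *Smad7* (9.82 ± 1.75 CPM to 50.8 ± 8.69 CPM) encode its inhibitors, and all 4 were higher. *Tgfb1* itself was at 939.7 ± 66.9 CPM and 925 ± 78.9 CPM (-0.02 ± 0.09, adjusted p = 0.82, edgeR), with groups that overlapped. *Il10rb* was called higher (59 ± 1.96 CPM to 133 ± 8.33 CPM) and *Il10ra* was not, and *Stat3* (497 ± 48.2 CPM to 215 ± 28.3 CPM) was lower.

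Microbial sensors and interferon-stimulated genes went in the other direction or in both. Of 29 genes of pattern recognition, 6 were higher and 7 lower (median log2 difference -0.43), which is below the share of all genes in the higher direction. *Tlr12*, which recognizes profilin of protozoa, was at 0.779, 0.516, and 0.372 CPM in the monocyte libraries and 659, 622, 583.5, and 621 CPM in the Tim-4+CD4+ libraries, a larger difference (10.04 ± 0.20) than that of any other Toll-like receptor on the list. *Tlr2* was lower (117 ± 3.27 CPM to 40.8 ± 4.16 CPM), as were the adaptor genes *Myd88* (328 ± 75.3 CPM to 155 ± 11.3 CPM), *Ticam2*, and *Tirap*, with *Myd88* at -0.85 and thus not called without monocyte replicate 1, and *Tlr4* was not called (33.4 ± 4.68 CPM and 42.4 ± 13.1 CPM). *Cd14*, the coreceptor for lipopolysaccharide, was higher (35.6 ± 4.45 CPM to 640.4 ± 99.4 CPM). Of 26 interferon-stimulated genes, 13 were lower and 3 higher (median -1.07). *Oas3*, a sensor of double-stranded RNA, was at 511, 295, and 396 CPM in the monocyte libraries and 22.1, 40.8, 30.5, and 26.2 CPM in the Tim-4+CD4+ libraries, and *Ifitm3*, which blocks the entry of viruses, went from 1520 ± 376 CPM to 208.5 ± 39.2 CPM. *Isg15* (54.3 ± 21.7 CPM to 197 ± 42.2 CPM), *Cxcl10* (23.3 ± 9.46 CPM to 478 ± 70.7 CPM), and *Ifi44* were the 3 higher, of which *Ifi44* fell short of 2-fold without monocyte replicate 2 (0.86) or Tim-4+CD4+ replicate 2 (0.88). *Gbp2* was at 327, 75.5, and 88.8 CPM in the monocyte libraries, a wide range, and at 40.4 ± 1.96 CPM in macrophages, and its log2 difference went from -2.02 to -0.99 without monocyte replicate 1.

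Among transcription factors, changes ran in both directions, and the shared myeloid factor was not called. Of 36 tested, 15 were higher and 6 lower, with a median log2 difference of 0.94. *Maf*, a leucine zipper factor of macrophages, was at 99.6, 87.3, and 115.5 CPM in the monocyte libraries and 288, 510.2, 637, and 521 CPM in the Tim-4+CD4+ libraries (2.28 ± 0.22, adjusted p = 9.04e-08, edgeR). The lowest macrophage library was above the highest monocyte library. *Spi1* (PU.1), needed for all myeloid cells, went from 695 ± 80.2 CPM to 515 ± 71.2 CPM, less than 2-fold. *Nr1h3* (LXRα, a sterol sensor, 6.25 ± 1.81 CPM to 53.7 ± 8.32 CPM), *Hes1*, a target of Notch (17.4 ± 0.893 CPM to 274 ± 29.1 CPM), *Runx3* (70.4 ± 5.63 CPM to 183.5 ± 27.8 CPM), and *Bhlhe40* (22.1 ± 5.59 CPM to 261 ± 28 CPM) were higher. *Bhlhe41* was called higher at only 3.04 ± 0.882 CPM. Lower were *Irf4*, *Irf5*, *Irf7*, *Cebpd*, *Bcl6* (203 ± 18.7 CPM to 44.1 ± 6.89 CPM), and *Id1* (6.5 ± 1.15 CPM to 0.984 ± 0.527 CPM). *Cebpa*, *Spic*, and *Tfec* lay just under 2-fold (0.99, 0.96, and 0.95) and passed it in some settings, reaching at most 1.29 (*Spic* without monocyte replicate 1) when 1 library was left out. *Id3* was called higher than in monocytes at 1.02, a call lost without monocyte replicate 3 (0.98) or Tim-4+CD4+ replicate 3 (0.95). It was the single factor that also differed from Tim-4-CD4- macrophages, and it was lower there (24.6 to 5.89 CPM). *Mycn* was not tested.

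The list of macrophage signature genes was less uniform than its name, with 16 of 34 members higher and 5 lower (median log2 difference 0.84). *Selenop*, which carries selenium, was at 438, 413, and 451 CPM in the monocyte libraries and 3069, 2885, 2935, and 2701 CPM in the Tim-4+CD4+ libraries, and *Tbxas1* (thromboxane synthase) went from 55.8 ± 5.72 CPM to 316 ± 7.25 CPM. Members lower were *Arsg*, *Fgd4*, *Sqor*, *Tspan14*, and *Csf3r*, the receptor for granulocyte colony-stimulating factor (454 ± 9.1 CPM to 189 ± 10.7 CPM). Factors that act on neighboring cells were higher in 17 of 23 and lower in none (median 7.68). *Igf1* was at 0.305, 0.564, and 0.204 CPM in the monocyte libraries and 74.1, 86.9, 97.9, and 81.2 CPM in the Tim-4+CD4+ libraries, and *Bmp2*, a signal to enteric neurons, at 0.0142, 0.0292, and 0 CPM in the monocyte libraries and 42.8, 70.3, 65.8, and 48.8 CPM in the Tim-4+CD4+ libraries, with no monocyte library above 1 CPM. *Pdgfc* (39.6 ± 4.15 CPM) and *Wnt4* were also higher than in Tim-4-CD4- macrophages, whereas *Vegfa* was lower there (42.6 to 6.71 CPM) and higher than in monocytes (0.0383 ± 0.0312 CPM).

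Genes of the cell cycle were higher in 26 of 31 members, with a median log2 difference of 2.50. *Mki67*, a protein of cycling cells, was at 4.87, 8.63, and 6.04 CPM in the monocyte libraries and 28.7, 38.6, 65.7, and 49.2 CPM in the Tim-4+CD4+ libraries and *Top2a*, which untangles DNA in mitosis, at 1.67, 1.24, and 1.38 CPM in the monocyte libraries and 19.1, 22.8, 39.5, and 31.8 CPM in the Tim-4+CD4+ libraries, with no overlap between groups. *Ccnd2* went from 1.91 ± 0.378 CPM to 237 ± 58.4 CPM, while *Ccnd3* was the single member lower, at 484, 407, and 392 CPM in the monocyte libraries and 17.9, 15.9, 27.6, and 19.8 CPM in the Tim-4+CD4+ libraries. The level was not highest in Tim-4+CD4+ macrophages: 15 of the 31 were lower than in Tim-4-CD4- macrophages and none was higher, as for *Top2a* (62.8 to 28.3 CPM).

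Immediate early genes, which respond within minutes and are known to be induced by enzymatic release of tissue, were higher in 23 of 27 members and lower in none (median log2 difference 4.23). *Fos* was at 173, 169, and 244 CPM in the monocyte libraries and 6472, 5993, 6432, and 5921 CPM in the Tim-4+CD4+ libraries, *Jun* went from 32.2 ± 4.84 CPM to 3288 ± 337 CPM, and *Egr1* from 20.3 ± 2.66 CPM to 2448 ± 433 CPM. *Fosb* was at 8.99, 8.09, and 10.7 CPM in the monocyte libraries and 5892, 5015, 5571, and 6123 CPM in the Tim-4+CD4+ libraries. No macrophage library came near the monocyte libraries for any of these. The heat shock genes were uneven, with *Hspa1b* at 189, 109.7, 816, and 310.2 CPM in the Tim-4+CD4+ libraries, highest in replicate 3, as were *Hspa1a*, *Hsp90aa1*, and *Dnajb1*, whose call was lost without that library (1.12, adjusted p = 0.0526, edgeR). None of the 27 was higher than in Tim-4-CD4- macrophages, and *Egr2*, *Egr3*, *Nr4a2*, and *Dusp2* were lower. Only the macrophages had been released from tissue, so the part of this handling in the difference, including that of *Cxcl2*, *Il1b*, *Tnf*, and *Ptgs2*, was not tested and cannot be told apart from tissue and population.

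Markers of other cell types were also higher in the macrophage libraries, although the sort excluded T cells, B cells, neutrophils, and eosinophils by their surface antigens. The 9 plasma cell markers summed to between 285 and 293 CPM in monocyte libraries and between 3549 and 7806 CPM in Tim-4+CD4+ libraries, and 8 of them were higher. *Igha* was at 1.89, 1.22, and 1.47 CPM in the monocyte libraries and 4667, 2521, 2995, and 1814 CPM in the Tim-4+CD4+ libraries, and *Jchain*, which is among the absent genes, at 279.9 ± 68.3 CPM, while the cell surface marker gene *Sdc1* was at 5.62 ± 1.43 CPM. B cell markers (9 of 9 higher) summed to 14.3 to 16.6 and 188 to 211 CPM, of which *Bank1* made up 147 CPM. Mesenchymal markers (10 of 11 higher) summed to 10.8 to 14.2 and 133 to 198 CPM, led by *Col3a1* (46.1 ± 7.53 CPM). T cell markers (11 of 11) reached 7.78 to 11.3 CPM, epithelial markers (12 of 14) 24.9 to 38.8 CPM, eosinophil and mast cell markers (4 of 4) 12 to 18.3 CPM, and those of enteric neurons and glia (7 of 9) 6.39 to 8.26 CPM in Tim-4+CD4+ libraries. Against these, endothelial markers (7 of 8 higher) did not separate the groups by their sum (54.9 to 89.4 and 60.1 to 101 CPM), since *Flt1* was high in monocytes at 71.9 ± 18 CPM. NK cell and innate lymphoid markers were at 8.25 to 19.1 and 13.2 to 18.9 CPM (5 of 8 higher), and dendritic cell markers at 55.7 to 64.9 and 105.5 to 169 CPM (7 of 9 higher and *Flt3* lower). Neutrophil markers were at 608 to 662 and 2140 to 2546 CPM (5 of 8 lower and 2 higher), and *Ly6g* was not among the genes counted. Most came from *Csf3r* (454 CPM) and the silenced gene *Mmp8* (186 CPM) in monocytes and from *Mmp9* (2157 ± 171 CPM) in macrophages. Red cell globins and other genes on the platelet and red cell list were lower in 6 of 9 members, with *Pf4*, also a chemokine of macrophages, as the leading member in macrophages. Of 10 genes known from nonclassical monocytes, 5 were lower and 2 higher, and *Ace* was at 689, 791, and 725 CPM in the monocyte libraries and 6.15, 3.87, 6.29, and 7.78 CPM in the Tim-4+CD4+ libraries. The part that RNA of other cells had in these differences was not tested, and 9 of the 248 were members of these lists.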

How the data were processed

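RNA was sequenced from 15 libraries of sorted cells, and the 7 of Ly6Chi monocytes and Tim-4+CD4+ macrophages are compared here. The authors made strand-specific mRNA libraries, trimmed the reads (Trimmomatic 0.36), placed them on the GRCm38.p4 genome (STAR 2.4.2), kept unique alignments, and counted genes of GENCODE vM11 (HTSeq 0.6.1p1). Whether that count used strand is not given in the sources used here, so an antisense partner may share reads. The authors deposited raw counts per gene beside a normalized signal, which is the same count divided by 1 size factor for each library and was not tested. The table lists genes with at least 16 reads in all. Symbols and positions came from GENCODE M21, which held 19421 of 19456 identifiers.

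Counts were fitted with edgeR 4.0.16 in R 4.3.3 (filterByExpr by population, TMM scaling, quasi-likelihood test, 1 term for population, Benjamini-Hochberg adjustment over 15802 genes). The standard error is the log2 difference over the square root of F. CPM and RPKM use TMM-scaled library sizes, and RPKM the exon length of all transcripts merged. The fit was tested on simulated libraries of the same depths, with 1 mean per gene for all populations and 1 fixed spread. There, 200 of 15209 genes were raised or lowered, in equal number, in Tim-4+CD4+ macrophages. By adjusted p alone the fit called 52% of those changed by 2-fold and 96% of those changed by 4-fold, with 5.13% of calls false. Far more genes differed in the real libraries, and more were higher than lower, so these shares may not carry over to them. Genes named were the sorting markers, the first 12 silenced and absent genes by mean CPM, the 5 largest rises and falls in CPM, and for each list its extremes, its most abundant members, those not tested, and others that describe it. The populations compared, the definitions, and the lists were chosen with earlier results of these data known. Alternatives were DESeq2 1.42.0, other size factors and filters, only the 7 libraries, a replicate block, counts thinned to the smallest library, other CPM limits, and leaving out each of the 7 libraries. Libraries of 48739371 to 139410518 counts put the floor of 3 counts well under 0.5 CPM. Promoters came from RefSeq (GRCm38.p6). Some members of the lists are counted but not reported by name here.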

Additional observations from a re-analysis of the deposited data

Results flagged for a closer look

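For each gene named by the rules above, the 4 Tim-4+CD4+ libraries were searched for 1 library far from the other 3 (Dixon's test at its 95% critical value). Of 35 genes tested this way, 3 had such a library, and chance alone gives about 1 in 20. *Ly6c2* was highest in Tim-4+CD4+ replicate 1 at 1.05 CPM, *Pxdc1* was highest in the same library at 439 CPM, and *Nfe2* was lowest in replicate 4 at 0.0498 CPM. None of these values comes near the monocyte libraries, and each call was kept when that library was left out.

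The difference from monocytes depended on the macrophage subset, doubly positive or doubly negative, for 16 of the named genes, by edgeR's test of the contrast between the subsets (at least 2-fold and adjusted p under 0.05). For 5 genes the log2 difference was higher in Tim-4+CD4+ macrophages, by 8.37 for *Timd4*, 5.16 for *Cd4*, 3.97 for *Pla2g2d*, 1.48 for *Pxdc1*, and 1.30 for *C6*. The first 2 are sorting markers. For the other 11 it was lower: *Ccr2* differed by -6.28, *Gm9733* by -4.22, *F10* by -4.10, *Mcemp1* by -3.67, *S100a4* by -3.15, *Sgms2* by -3.13, *Mmp8* by -2.83, *Cd177* by -2.74, *Hp* by -2.65, *Nfe2* by -1.84, and *Flna* by -1.15. The call of *Nfe2* was lost with a replicate block in the 8 libraries of both subsets (adjusted p = 0.0636, edgeR). Most of these genes were at or under a few CPM in Tim-4-CD4- macrophages, except *Ccr2* and *Flna*.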

How the results depend on the processing

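For the 35 named genes, all 559 values under the 16 settings kept their direction and their side of the threshold, and DESeq2 gave no adjusted p for *Timd4*. A filter of at least 1 CPM on average left 4338 genes called at 2-fold, of which 2846 were higher, because it tests fewer genes. The sets of silenced and absent genes depend on the limits that define them. With a silent limit of 0.1 CPM there were 13 silenced and 144 absent genes, and with 1 CPM 75 silenced genes. With an expressed limit of 5 CPM there were 77 silenced and 416 absent genes, and with 50 CPM there were 20 and 73. Under the other settings there were 47 to 53 silenced genes, which shared 47 to 49 with the 49 given above, and 248 to 268 absent genes, which shared 237 to 248 with the 248. Leaving out 1 of the 7 libraries at a time gave 10532 to 11343 genes that differed, 6690 to 6843 at 2-fold (4662 to 4850 higher and 1932 to 2048 lower), 48 to 53 silenced, and 248 to 268 absent genes. Other size factors moved the median log2 difference of all genes from 0.10 to 0.15 and 0.21, DESeq2 gave 0.24, and the share of higher genes among the 2-fold calls ran from 65.6% to 73.5% over all settings.

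Whether replicate numbers pair monocyte and Tim-4+CD4+ libraries cannot be settled from so few same-numbered pairs. Deviations of same-numbered libraries from their group means correlated at 0.121, 0.0121, and 0.0463, and those of differently numbered ones at -0.116 to 0.0711. With the title's replicate number as a replicate block 10869 genes differed, 6770 at 2-fold, and 49 silenced and 248 absent genes were found, all of them shared with those above. With the number in the sample description as the replicate block 11137 genes differed. Same-numbered libraries of the doubly positive and doubly negative macrophages correlated at -0.0749 to 0.128, and differently numbered ones at -0.140 to 0.184. This check covers matching numbers only, so it cannot tell whether libraries with different numbers came from the same mice. The replicate block follows the numbers and has the same limit. Between these subsets 739 genes were higher and 597 lower, with the block 681 and 574 (1225 shared), and with the block in their 8 libraries alone 663 and 512 (1118 shared), all added after the data were seen. Among the gene lists, the granule list alone moved by over 1.5 times, to between 1 and 3 members higher and between 3 and 8 lower. Depth limits the silenced and absent sets: a gene at 3 counts or fewer in each library cannot be told from one that is not transcribed.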

Other observations

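Some absent genes outside the lists are described here, picked after their values were seen. *H2-M2*, a class I-like gene of the major histocompatibility complex, was at 0.0638, 0, and 0.0186 CPM in the monocyte libraries and 88.9, 67.2, 101, and 121 CPM in the Tim-4+CD4+ libraries, with means of 4.35 CPM in Tim-4-CD4- and 20.1 CPM in Tim-4-CD4+ macrophages. *Epor*, the erythropoietin receptor, went from 0.0251 ± 0.014 CPM in monocytes through 6.71 and 16.6 CPM to 41.1 ± 9.43 CPM. *Gas1*, a membrane protein that binds hedgehog ligands, was at 0.0133 ± 0.0116 CPM in monocytes, 7.43 and 43 CPM in the other subsets, and 86 ± 15.1 CPM in Tim-4+CD4+ macrophages. *Adrb1*, the β1 adrenergic receptor, was at 0.113, 0.0973, and 0.13 CPM in the monocyte libraries and 44.6, 36.3, 34.9, and 35.2 CPM in the Tim-4+CD4+ libraries, against 5.01 CPM in Tim-4-CD4- macrophages. *Lag3*, an inhibitory receptor that binds MHC class II and lies next to *Cd4*, was at 0.12, 0.0195, and 0.0372 CPM in the monocyte libraries and 185, 124.5, 131, and 133 CPM in the Tim-4+CD4+ libraries, with means of 67.5 CPM in the doubly negative and 123 CPM in the CD4 single positive subset.

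*Csf1r*, the receptor for the growth factor that keeps monocytes and macrophages alive, was expressed in both populations, at 2281, 2200, and 2199 CPM in the monocyte libraries and 6945, 6680, 6425, and 6657 CPM in the Tim-4+CD4+ libraries.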
